A study of Homo sapiens with 6 samples.

Results

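The genes described here were 9 regulators of hormone response and luminal identity in breast cells. They comprised the sex steroid receptor genes ESR1, ESR2 and PGR, the luminal transcription factor genes GATA3 and FOXA1, and the receptor genes NR3C1, VDR, RARA and RARB. They were chosen by name and found through their NCBI Gene IDs among the 16623 genes of the expression files. All 9 were present in the files, so no member was absent. The cells were MDA-MB-231, an established breast cancer cell line classed as triple-negative because it lacks estrogen receptor, progesterone receptor and HER2 amplification. They were treated with PCI-24781, an inhibitor of histone deacetylases (HDACs), or with DMSO, the solvent in which it was given. PCI-24781 was given at 100 nM and at 200 nM, each dose lasted 24 h in one group and 48 h in another, and a DMSO group was taken at each time. There was 1 library in each of the 6 groups, so no difference had a replicate check, no p-value was calculated and no spread can be given.

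Nuclear receptors are transcription factors that are switched on by small lipophilic ligands such as estrogens, glucocorticoids, vitamin D and retinoic acid. In luminal breast cells, the estrogen receptor encoded by ESR1 works together with GATA3 and with FOXA1, a pioneer factor that opens chromatin for it. Triple-negative lines express little of this set, and HDAC inhibitors have been studied as a means of switching silent genes of this kind back on. The question put to the data was therefore whether ESR1, its partners or other receptor genes were higher in the PCI-24781 libraries than in DMSO.

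Expression was given as FPKM, which is the number of fragments scaled by transcript length and by library size. Changes are differences in log2(FPKM + 1), so the pseudocount of 1 understates the change of low genes. A gene was tested when it reached an FPKM of 1 in either of the libraries compared, and it was called higher or lower at a change of 2-fold or more on this scale. The files hold no counts. The steps between low FPKM values gave an approximate depth of 16500000 to 19100000 fragments per library, and fragment numbers below are estimates from that depth and the transcript lengths. The cells had most of the mesenchymal marker pattern of this line, with VIM (vimentin) at FPKM 1629 to 2053 and CDH1 (E-cadherin) at 0.24 to 0.39. CD44, EGFR, CAV1 and AXL were also expressed, at an FPKM of 35.12 or more. EPCAM and ERBB2 (the HER2 gene), listed beforehand as low or absent, were at 2.26 to 4.70 and 13.16 to 21.36. In bulk RNA, fewer cells that express a gene and less RNA per cell cannot be told apart.

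The DMSO libraries differed from each other by more genes than DMSO 48 h differed from any PCI-24781 library, and this touches each comparison with the 24 h control. Between the DMSO libraries, 301 genes were called in either direction. DMSO 48 h differed from the 24 h PCI-24781 libraries by 66 (100 nM) and 245 (200 nM) genes, and from those of 48 h by 54 (100 nM) and 31 (200 nM). Time in culture, exchanged labels and a property of the DMSO 24 h library cannot be told apart. The labels were used as given, and for NR3C1, VDR, RARA and RARB the changes at 24 h are also given against DMSO 48 h, a reference added after the data had been seen.

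**Figure D1:**
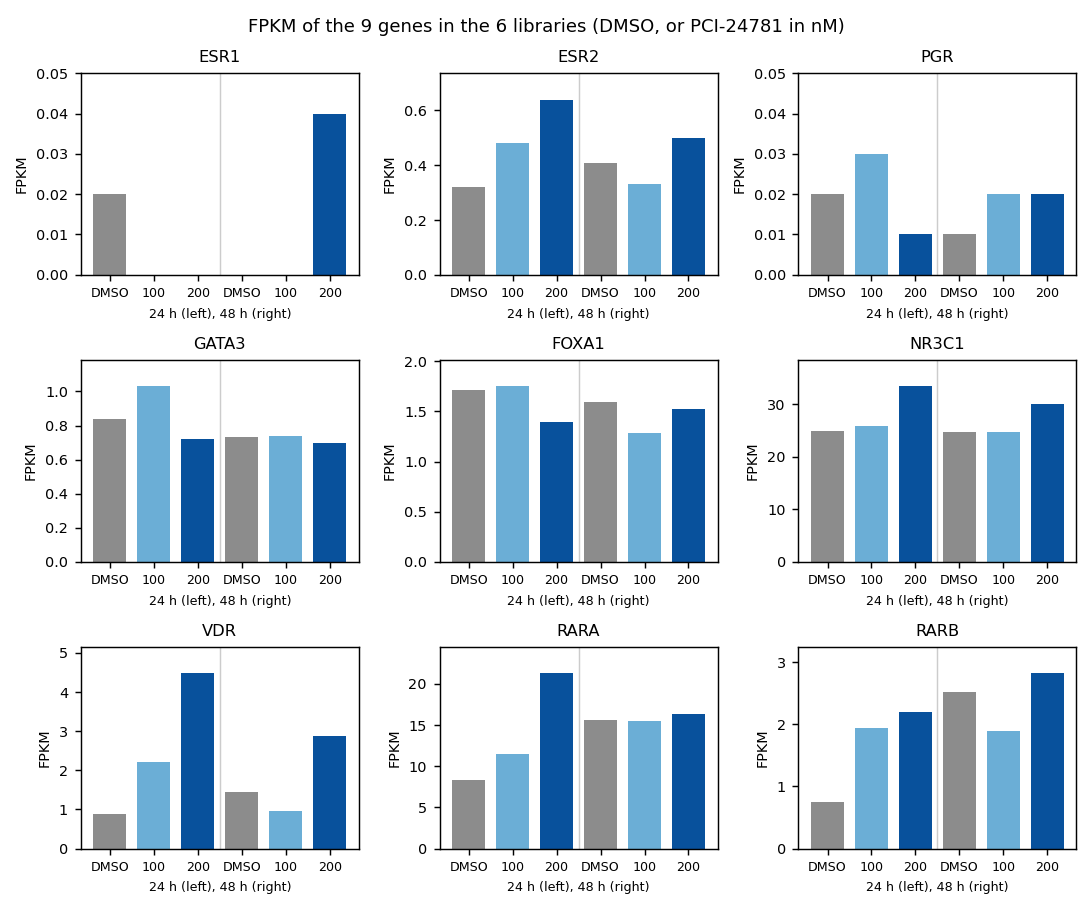
FPKM (vertical axes, linear, each with its own range) of the 9 genes in the 6 libraries, with grey bars for DMSO, light blue for 100 nM and dark blue for 200 nM PCI-24781. Each bar is 1 library. ESR1 and PGR did not exceed an FPKM of 0.04, whereas VDR reached 4.48 and RARA reached 21.29 at 200 nM 24 h.

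ESR1, the gene of estrogen receptor alpha, stayed at the limit of detection in every library. Of the 24 h libraries, DMSO had an FPKM of 0.02 and both PCI-24781 libraries were listed at 0. Of the 48 h libraries, DMSO and 100 nM were listed at 0 and 200 nM had 0.04. The highest value corresponded to about 4.2 fragments and the DMSO 24 h value to 2.4 to 2.5, so a handful of fragments separated the libraries. No re-expression of ESR1 was detectable at this depth at either dose or time. ESR1 (Gene ID 2099) lies on the plus strand at chr6:152011631-152424409 in hg19.

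PGR, the progesterone receptor gene and a known target of estrogen receptor alpha, was equally low. The 24 h libraries had an FPKM of 0.02 (DMSO), 0.03 (100 nM) and 0.01 (200 nM), and the 48 h libraries 0.01 (DMSO), 0.02 (100 nM) and 0.02 (200 nM). These values corresponded to at most about 7.4 fragments. No library of either gene stood out from the others by more than such counts, and no ratio in FPKM is given for them. PGR (Gene ID 5241) lies on the minus strand at chr11:100900355-101000544 in hg19.

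ESR2 encodes estrogen receptor beta, which binds the same DNA elements as the alpha form. Its FPKM in the 24 h libraries was 0.32 (DMSO), 0.48 (100 nM) and 0.64 (200 nM). In the 48 h libraries it was 0.41 (DMSO), 0.33 (100 nM) and 0.50 (200 nM). The 24 h values were ordered by dose, up to 2.0 times the DMSO value, but all stayed below the FPKM of 1 needed for testing and rested on roughly 9.0 to 41 fragments. At 48 h the 100 nM library lay below DMSO and the 200 nM library above it, at ratios of 0.805 and 1.22. The nearest gene, SYNE2, which encodes a nuclear envelope protein, ends 219 bases from ESR2 (Gene ID 2100, chr14:64693430-64805268, minus strand, hg19) and had FPKM values of 10.18 to 16.66.

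The sequence upstream of ESR1 is shown because its lack of expression is the central observation. RefSeq annotates 6 ESR1 starts in the promoter table used here (build GRCh38.p14), and none of the 250-base windows before them held a full estrogen response element. Of the windows that overlap no annotated exon, the following one, at chr6:151806946-151807195 on the plus strand, held a GC box, which is marked in capitals.
ESR1: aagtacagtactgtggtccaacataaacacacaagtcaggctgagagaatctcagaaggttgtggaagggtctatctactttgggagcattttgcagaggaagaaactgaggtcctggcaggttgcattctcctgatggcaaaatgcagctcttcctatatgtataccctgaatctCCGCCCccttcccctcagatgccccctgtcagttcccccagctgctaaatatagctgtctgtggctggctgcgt
This window had a GC content of 50% and 2 CG dinucleotides, below the medians of 58% and 11 over the 35116 promoters of the table. The ESR1 windows ranged from 36.0% to 60.8% GC and from 2 to 11 CG dinucleotides, so the window shown had the fewest. The windows at chr6:151807432-151807681 and chr6:151808857-151809106 had 11, equal to the median of all promoters.

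GATA3, a zinc finger factor that specifies luminal cells, was expressed weakly and evenly. Its FPKM in the 24 h libraries was 0.84 (DMSO), 1.03 (100 nM) and 0.72 (200 nM), and in the 48 h libraries 0.73, 0.74 and 0.70 in the same order. The 100 nM 24 h library was the highest and the 200 nM 48 h library the lowest, and the 3 libraries at 48 h were nearly level. Changes against DMSO of the same time were 0.14 (100 nM) and -0.10 (200 nM) for 24 h, and 0.01 (100 nM) and -0.03 (200 nM) for 48 h. GATA3 (Gene ID 2625) lies on the plus strand at chr10:8096667-8117164 in hg19.

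FOXA1 behaved likewise. Its FPKM in the 24 h libraries was 1.71 (DMSO), 1.75 (100 nM) and 1.39 (200 nM), and in the 48 h libraries 1.59, 1.28 and 1.52 in the same order. The largest differences from DMSO of the same time were decreases, by 0.18 at 200 nM 24 h and by 0.18 at 100 nM 48 h on the log2 scale, and none was called. Neither luminal factor was therefore higher at 200 nM than in DMSO at either time. FOXA1 (Gene ID 3169) is on the minus strand at chr14:38058757-38064325 in hg19.

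The glucocorticoid receptor gene NR3C1 had the highest level of the 9 genes, with a mean FPKM above that of 82.1% of all genes. Its FPKM in the 24 h libraries was 24.85 (DMSO), 25.90 (100 nM) and 33.36 (200 nM), and in the 48 h libraries 24.64, 24.74 and 29.96 in the same order. The DMSO and 100 nM libraries were alike at both times, and the 200 nM libraries were the highest pair. The ratio to DMSO was 1.34 at 200 nM 24 h and 1.22 at 200 nM 48 h, which is below the 2-fold threshold. Against DMSO 48 h, the ratio of the 200 nM 24 h library was 1.35, so this value did not depend on which DMSO library served as the reference. NR3C1 (Gene ID 2908) is on the minus strand at chr5:142657496-142815077 in hg19.

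VDR encodes the vitamin D receptor, which controls calcium handling and differentiation in many epithelia, and it showed the widest range of the 9 genes. Its FPKM in the 24 h libraries was 0.89 (DMSO), 2.21 (100 nM) and 4.48 (200 nM). In the 48 h libraries it was 1.44 (DMSO), 0.96 (100 nM) and 2.87 (200 nM). The 200 nM library was the highest at each time, whereas the 100 nM library lay above DMSO at 24 h and below it at 48 h. The estimated fragments ranged from 66 to 80 in DMSO 24 h and from 318 to 387 at 200 nM 24 h. Variation between libraries of the same group could not be measured.

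At 200 nM 24 h, VDR was called higher with a change of 1.54, a ratio in FPKM of 5.03, and ranked 143 of 11660 tested genes. It was the only gene of the 9 that was still called there against DMSO 48 h, with a change of 1.17 and a ratio of 3.11, where 0.863% of 11710 tested genes were called higher. With DMSO 48 h as the reference, none of the 6 members tested at 100 nM 24 h was called higher, against 0.0606% of all tested genes. At 100 nM 24 h the change was 0.76, short of the threshold on the log2(FPKM + 1) scale although the FPKM ratio was 2.48. At 200 nM 48 h the change was 0.67 and the ratio 1.99, which placed VDR at rank 127 of 11665. At 100 nM 48 h the change was -0.32. VDR (Gene ID 7421) is on the minus strand at chr12:48235320-48298814 in hg19, next to HDAC7, a class IIa HDAC gene whose FPKM was 16.05 in DMSO 24 h and 11.95 at 200 nM 24 h.

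RARA and RARB encode retinoic acid receptors alpha and beta, which bind DNA with retinoid X receptors. RARA is known as an estrogen-responsive gene in luminal cells, and RARB as a retinoic acid target that is often silenced in breast cancer. RARA had an FPKM of 8.34 (DMSO), 11.43 (100 nM) and 21.29 (200 nM) in the 24 h libraries. In the 48 h libraries it had 15.60 (DMSO), 15.54 (100 nM) and 16.29 (200 nM). The 24 h libraries were ordered by dose, while the 3 libraries at 48 h differed little and all lay between the 100 nM and 200 nM values of 24 h.

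RARA was called higher at 200 nM 24 h, with a change of 1.25 and a ratio of 2.55. The step from 100 nM to 200 nM at 24 h was 0.84. Against DMSO 48 h, however, the change at 200 nM 24 h was only 0.43 and was not called, and DMSO 48 h itself exceeded DMSO 24 h by 0.83. The change at 100 nM 24 h against DMSO 48 h was -0.42, so its direction depended on the DMSO library used. At 48 h the changes were -0.01 at 100 nM and 0.06 at 200 nM. RARA (Gene ID 5914) lies on the plus strand at chr17:38465423-38513895 in hg19.

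RARB had an FPKM of 0.75 (DMSO), 1.94 (100 nM) and 2.20 (200 nM) in the 24 h libraries. In the 48 h libraries it had 2.52 (DMSO), 1.89 (100 nM) and 2.82 (200 nM). DMSO 24 h was the lowest library by a wide margin, and the other 5 lay between 1.89 and 2.82. For 24 h the changes were 0.75 (100 nM) and 0.87 (200 nM), for 48 h they were -0.28 (100 nM) and 0.12 (200 nM), and none was called. Against DMSO 48 h, the 24 h libraries were lower, by -0.26 at 100 nM and -0.14 at 200 nM. The direction of RARB at 24 h therefore depended on the DMSO library used. RARB (Gene ID 5915, plus strand, chr3:25215823-25639423, hg19) overlaps the 3′ end of TOP2B, a topoisomerase gene on the other strand with FPKM 42.46 to 53.43. The overlap covers only chr3:25639396-25639423, whereas the RARB transcripts were 1273 to 3084 bases long. The strand setting of the counting is not given in the sources used here, so reads from the overlap cannot be assigned.

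The promoter windows of RARB and RARA are shown because these genes had the next widest ranges after VDR and carry different elements. The RARB window at chr3:25428013-25428262 (GRCh38.p14, plus strand, RefSeq) held a direct repeat with spacing 5, the type of element bound by retinoic acid receptors with retinoid X receptors. Its capitals mark that repeat, 53 to 37 bases before the start. In the RARA window at chr17:40317995-40318244 (GRCh38.p14, plus strand, RefSeq), the capitals mark 5 GC boxes, elements bound by SP-family factors.
RARB: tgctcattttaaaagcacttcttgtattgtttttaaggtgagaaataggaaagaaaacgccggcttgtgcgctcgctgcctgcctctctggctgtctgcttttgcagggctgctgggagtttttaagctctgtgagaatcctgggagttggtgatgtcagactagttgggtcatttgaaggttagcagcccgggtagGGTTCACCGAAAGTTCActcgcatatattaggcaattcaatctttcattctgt
RARA: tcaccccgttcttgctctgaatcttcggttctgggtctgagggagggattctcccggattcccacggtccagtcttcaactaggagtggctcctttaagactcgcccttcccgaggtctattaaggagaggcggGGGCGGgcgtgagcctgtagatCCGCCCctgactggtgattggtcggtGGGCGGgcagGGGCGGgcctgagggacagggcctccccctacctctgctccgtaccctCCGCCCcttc
The repeat was searched on both strands as a core motif, then any 5 bases, then a core motif again. The core motifs allowed were AGGTCA, the consensus, AGTTCA and also GGGTCA, each with a changed base, and GGTTCA, with both changes. The repeat was found in 26 of 35116 promoters (0.074%) and in 1 of the 35 windows of the members. That match, in RARB, was made of GGTTCA and AGTTCA, neither of which is the consensus. It was found only because the search allowed these motifs, so nothing is concluded from its rarity. The GC box, GGGCGG, was found in 42.6% of all promoters and in 21 of 35 member windows. Of the 9 members, 8 had windows in the table, and VDR had no entry.

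Other elements were scarce in the member windows. The consensus core motif AGGTCA alone, which can overlap the longer elements, was in 4 of 35 windows (2 windows of ESR2, 1 of RARA and 1 of RARB) and in 12.1% of all promoters. The full estrogen response element, AGGTCA and TGACC with 3 bases between them, was in none of the 35 and in 0.0256% of all. The glucocorticoid response element (GNACA, 3 bases, TGTNC) was in none of the 35 and in 0.327% of all. The direct repeat with spacing 3, made of the same core motifs and bound by the vitamin D receptor, was in none of the 35 and in 0.0655% of all. The GATA site AGATAA was in none of the 35 and in 9.17% of all, the forkhead site TGTTTAC in 1 of NR3C1 and in 2.98% of all, and the TATA box TATAAA in 2 and in 10.7% of all. Such matches are letters in a window and not shown to be bound.

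**Figure D2:**
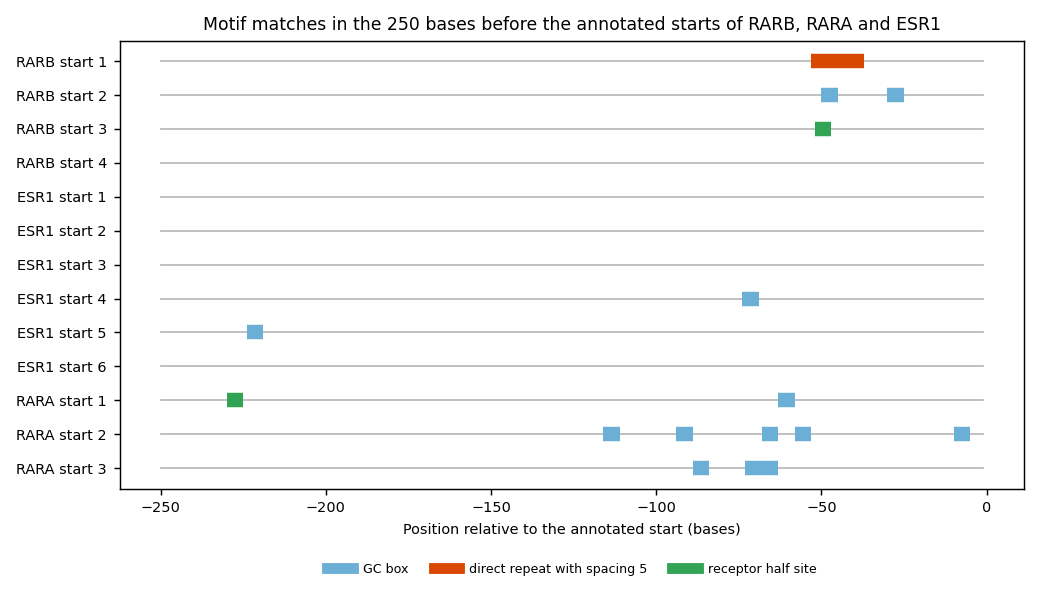
Motif matches in the 250 bases before each annotated start of RARB, RARA and ESR1, drawn to scale, with the position before the start in bases on the horizontal axis and each start on its own line. The direct repeat with spacing 5 (orange) appears before 1 of the 4 RARB starts, 2 of the 6 ESR1 starts have a GC box (blue), and green marks the single core motif.

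Of the 11 genes in the files whose promoters held the direct repeat with spacing 5, none was called in any of the 4 comparisons with DMSO. Of these genes, 6 were tested at 100 nM 24 h and 7 in each of the other 3 comparisons. Over all tested genes, 1.35% (100 nM) and 4.49% (200 nM) were called higher at 24 h. At 48 h the shares were 0.0608% (100 nM) and 0.206% (200 nM). At these shares so few genes would seldom include a called one, so nothing is concluded about the element. CYP26A1, the retinoic acid hydroxylase gene and a classical target of the receptors, was at FPKM 0.05 or below in all libraries.

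Counted together, 2 of the 5 members tested at 200 nM 24 h were called higher, VDR and RARA, where 4.49% of 11660 tested genes were called higher. None was called lower there, against 1.48% of all tested genes. The median change was 0.31 over all 9 members, 0.87 over the 5 tested and 0.01 over all genes tested. A member with low expression in DMSO could only be tested through a higher treated library, so the count over tested members favours increases.

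At 100 nM 24 h, none of the 6 tested members was called in either direction, against 1.35% of 11475 genes called higher and 0.131% called lower. At 100 nM 48 h none of 5 was called, against 0.0608% higher and 0.408% lower of 11514 genes. At 200 nM 48 h none of 5 was called, against 0.206% higher and 0.06% lower of 11665 genes. The medians over all 9 members were 0.14, -0.01 and 0.06 in these comparisons, beside 0.01, -0.01 and 0.01 over all genes tested. Between DMSO 48 h and DMSO 24 h, 1 of 5 tested members was called higher, RARB with a change of 1.01, against 2.49% of 11490 genes called higher and 0.131% called lower.

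The DMSO library and the threshold changed these counts. Against DMSO 24 h in place of DMSO 48 h, VDR and RARB were called higher at 200 nM 48 h, with changes of 1.03 and 1.13, where 4.7% of all tested genes were called higher, and none was called at 100 nM 48 h, where 1.62% were. With a 1.5-fold threshold and DMSO of the same time, VDR and RARB were called higher at 100 nM 24 h (5.58% of all tested genes), VDR, RARA and RARB at 200 nM 24 h (12.5%), none at 100 nM 48 h (0.504%) and VDR at 200 nM 48 h (1.53%). With that threshold RARA and RARB were called between the DMSO libraries (8.51%).

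**Figure D3:**
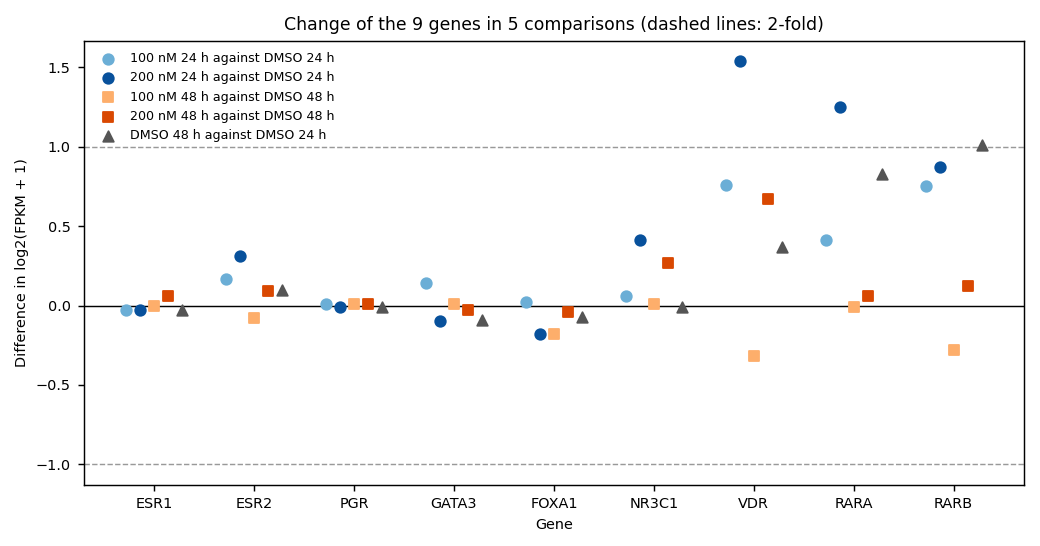
Difference in log2(FPKM + 1) (vertical axis) for each of the 9 genes in 5 comparisons, with circles for 24 h, squares for 48 h, triangles for DMSO 48 h against DMSO 24 h and dashed lines at a 2-fold change. VDR and RARA at 200 nM 24 h, at 1.54 and 1.25, and RARB between the DMSO libraries, at 1.01, were past the dashed line.

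Ordered by level, NR3C1 (FPKM 24.64 to 33.36) and RARA (8.34 to 21.29) lay apart from each other and from the rest. VDR (0.89 to 4.48), RARB (0.75 to 2.82) and FOXA1 (1.28 to 1.75) overlapped over the 6 libraries. GATA3 (0.70 to 1.03) did not overlap FOXA1 but overlapped VDR and RARB. ESR2 (0.32 to 0.64) was below all of these, and PGR (0.01 to 0.03) and ESR1 (0 to 0.04) overlapped at the bottom. The mean levels of ESR1 and PGR were above those of only 4.9% and 8.1% of genes, and those of FOXA1, RARB and VDR were above 34.5%, 37.1% and 37.6%.

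**Figure D4:**
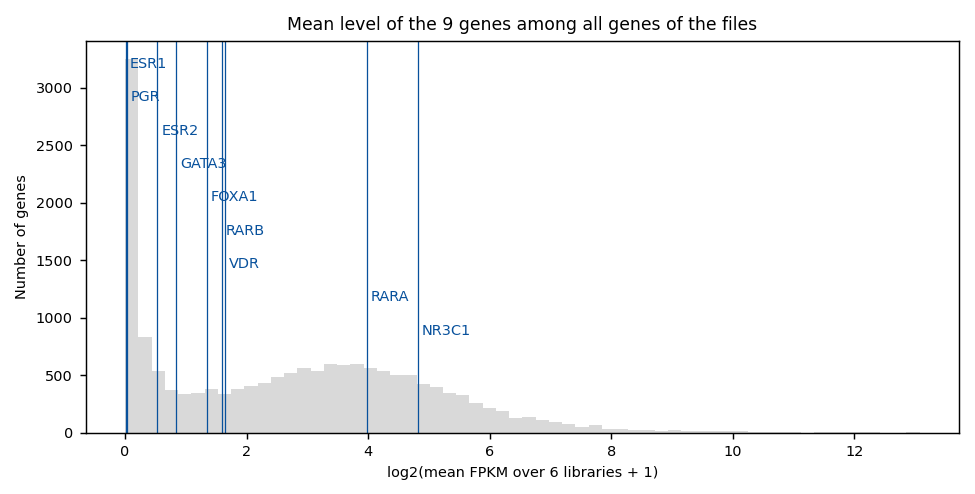
Histogram of log2(mean FPKM over the 6 libraries + 1) for all 16623 genes, with vertical axis the number of genes and a blue line for each of the 9 genes. ESR1 and PGR fall in the peak of unexpressed genes at 0, and RARA and NR3C1 fall within the main body of expressed genes.

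The genes most like a member over the 6 libraries were listed by the Pearson correlation of log2(FPKM + 1), as a description, since all points share the same libraries. For VDR these were VXN (0.999), CACUL1 (0.998) and RMND5A (0.997), and 262 of 11417 genes reached 0.95. VXN, a neural differentiation gene, had an FPKM of 1.66 (DMSO), 4.17 (100 nM) and 9.25 (200 nM) in the 24 h libraries and of 2.84, 1.80 and 5.68 in those of 48 h. For RARA they were OAF (0.996), ACOX2 (0.994) and PRKCH (0.990), for NR3C1 FAM120B (0.997), ERBB3 (0.997) and NRDC (0.990), and for FOXA1 MTREX (0.994), RAP1B (0.991) and MDM2 (0.990). ERBB3, a receptor of the EGFR family, had, in the same order, FPKM 3.54, 3.86 and 5.72 in the 24 h libraries and 3.56, 3.56 and 4.66 in the later set.

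Known target genes of estrogen receptor alpha were read beside ESR1. Of 18 listed, 17 were found in the files (TFF1 is not analysed here) and 12 were tested at 200 nM 24 h. CA12 and RARA were called higher there and none lower, beside 4.49% higher and 1.48% lower of all tested genes. RARA is also a member, so its call repeats the value given above and is not a separate result. CA12, a carbonic anhydrase gene, had an FPKM of 6.09 (DMSO), 12.90 (100 nM) and 14.23 (200 nM) in the 24 h libraries and of 16.60, 16.18 and 19.70 in those of 48 h, and values of other genes follow in this order. DMSO 48 h thus exceeded every 24 h library for CA12, and its change between the DMSO libraries was 1.31. At 200 nM the list median was 0.37 for 24 h but 0.08 for 48 h, beside 0.21 between the DMSO libraries. No gene was called at 100 nM 24 h or in either comparison at 48 h. The shares of all tested genes called higher were 1.35% (100 nM 24 h), 0.0608% (100 nM 48 h) and 0.206% (200 nM 48 h). Those called lower were 0.131%, 0.408% and 0.06% in the same order. With shares this low, a short list would seldom hold a called gene.

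Of 26 luminal lineage genes, 21 were found and 8 were tested at 200 nM 24 h, and no gene was called in any of the 4 comparisons. Only 4.49% of all tested genes were called higher and 1.48% lower at 200 nM 24 h, so no call among 8 genes says little. The list medians were -0.17 (100 nM) and -0.08 (200 nM) for 24 h, and 0.21 (100 nM) and -0.08 (200 nM) for 48 h. The luminal keratin genes with the highest levels were KRT18, at FPKM 98.80, 89.03 and 105.74 in the 24 h libraries and 91.13, 91.31 and 110.61 in the later set, and KRT8, at 86.51, 64.26 and 61.52 in the 24 h libraries and 84.39, 99.32 and 79.83 in the later set. KRT8 lay below DMSO at both doses of the earlier time, and KRT18 above DMSO at 200 nM of both times. KRT19, another luminal keratin gene, had FPKM 20.62, 31.55 and 41.25 in the 24 h libraries and 37.17, 33.09 and 39.17 in the later set. Its change at 200 nM 24 h was 0.97, just under the threshold of 1, beside 0.82 between the DMSO libraries. EPCAM, an epithelial adhesion gene, had a change of -0.81 there, with 4.70, 2.81 and 2.26 in the 24 h libraries and 2.99, 3.56 and 2.35 in the later set. No gene was called in any of the 4 comparisons among the basal and mesenchymal lineage genes either, of which 17 of 19 were found and 12 to 13 tested. At 200 nM 24 h, 6 of those tested lay above 0 and 6 below with a median of 0.02, and at 200 nM 48 h 7 lay above and 6 below with a median of 0.1. At 200 nM, VIM had changes of -0.18 (24 h) and -0.32 (48 h), and MSN, which encodes the cytoskeletal linker moesin, of -0.44 and -0.14.

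Glucocorticoid receptor targets were set beside NR3C1. Of 15 genes, all present, 13 were tested at 200 nM 24 h, and DUSP1 and ERRFI1 were called higher there and none lower. The shares over all tested genes were 4.49% higher and 1.48% lower. DUSP1, a phosphatase that switches off MAP kinases, had FPKM 21.99, 27.69 and 47.68 in the 24 h libraries and 29.93, 24.30 and 37.10 in the later set. ERRFI1, a feedback inhibitor of EGFR, had 78.79, 94.78 and 187.13 in the 24 h libraries and 170.77, 177.43 and 242.46 in the later set. The 200 nM library was the highest of each time for both, while ERRFI1 already differed by 1.11 between the DMSO libraries, with the later one higher. The list median was 0.17 at 200 nM 24 h and 0.66 between the DMSO libraries.

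Vitamin D receptor targets and enzymes numbered 10, of which 7 were found and 6 tested at 200 nM 24 h. Over all tested genes, 1.35% were called higher at 100 nM 24 h and 4.49% at 200 nM 24 h. CDKN1A, which encodes the cell cycle inhibitor p21, was called higher at both doses at 24 h, with changes of 1.16 and 1.81. Its FPKM was 13.18, 30.61 and 48.84 in the 24 h libraries and 44.25, 25.81 and 52.88 in the later set, so that, like VDR, it was below DMSO at 100 nM 48 h. It was also called higher between the DMSO libraries, by 1.67, and DMSO 48 h lay above 100 nM 24 h. CYP24A1, the vitamin D hydroxylase that is the classical target of the receptor, was below an FPKM of 1 throughout, at 0.04, 0.31 and 0.85 in the 24 h libraries and 0.17, 0.05 and 0.59 in the later set. THBD (thrombomodulin) and ORAI1 (a calcium channel subunit) had changes of -0.42 and 0.18 at 200 nM 24 h. The list median was 0.62 at 200 nM 24 h and 0.08 at 200 nM 48 h, beside 0.48 between the DMSO libraries. All 6 genes tested between the DMSO libraries were higher in DMSO 48 h. Some genes are named although the naming rule did not select them, and were chosen for printing after their values were seen. They are CYP24A1, CYP26A1, KRT19, EPCAM, CDH1, ERBB2, CD44, EGFR, CAV1, AXL, DHRS3, DNMT3A and DNMT3B. The cell type markers other than CD68 and ACTA2, and the neighbouring genes, belong to them too. Of these, the cell type markers and KRT19, EPCAM, CDH1, ERBB2, CD44, EGFR, CAV1 and AXL had been listed beforehand as markers.

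Among 20 retinoic acid targets and enzymes, 18 were found and 9 tested at 200 nM 24 h. CRABP2 and TGM2 were called higher there and PLAAT4 lower, beside 4.49% higher and 1.48% lower of all tested genes. CRABP2, a carrier that delivers retinoic acid to its receptors, had FPKM 3.66, 6.77 and 9.62 in the 24 h libraries and 7.45, 7.17 and 6.32 in the later set. TGM2, a transglutaminase induced by retinoic acid, had 51.57, 80.33 and 109.18 in the 24 h libraries and 125.61, 107.09 and 142.11 in the later set. PLAAT4, also known as a retinoid-induced gene, went the other way, with 4.31, 3.46 and 1.52 in the 24 h libraries and 4.90, 9.08 and 3.01 in the later set. The 24 h libraries were ordered by dose for all 3 genes. The list median was 0.57 at 200 nM 24 h, beside 0.47 between the DMSO libraries. RARB, DHRS3 and TGM2 were called higher between the DMSO libraries, against 2.49% of all tested genes.

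Of 32 other nuclear receptor genes, 29 were found and 21 tested in each comparison with DMSO. NR4A2, an orphan receptor induced by many stimuli, was called higher at 200 nM 24 h with a change of 1.21, and no other was called. This was 1 of 21 tested, a share close to the 4.49% of all tested genes called higher there. The FPKM of NR4A2 was 1.10, 2.29 and 3.85 in the 24 h libraries and 3.89, 2.90 and 6.09 in the later set. The later DMSO library exceeded the earlier by 1.22. NR2F2 and NR1H2 had the highest mean levels, with FPKM 44.00 to 63.66 and 28.43 to 35.38. The list median was 0.12 at 200 nM 24 h and 0 at 200 nM 48 h, beside 0.31 between the DMSO libraries.

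Receptor coregulators and the enzymes that silence receptor genes were read last. Of 15 coregulators, all tested, CITED2 was called higher and NSD1 lower at 200 nM 24 h, with changes of 1.05 and -1.24. Over all tested genes, 4.49% were called higher and 1.48% lower there. CITED2, which binds the p300 and CBP acetyltransferases, had FPKM 102.76, 131.19 and 213.44 in the 24 h libraries and 149.16, 143.58 and 153.65 in the later set. NSD1, a histone methyltransferase, had 10.29, 6.45 and 3.79 in the 24 h libraries and 6.32, 7.87 and 5.81 in the later set. Of the silencing enzymes DNMT1, DNMT3A, DNMT3B and EZH2, none was called in the 4 comparisons. At most 4.49% of all tested genes were called higher and 1.48% lower in any of these, so no call among 4 genes says little. At 200 nM 24 h all 4 lay below DMSO, with a median of -0.28, beside -0.17 between the DMSO libraries. At 200 nM 48 h 2 lay above 0 and 2 below. DNMT1, the maintenance DNA methyltransferase, had FPKM 79.25, 68.38 and 52.18 in the 24 h libraries and 53.64, 55.91 and 49.34 in the later set, and EZH2, the H3K27 methyltransferase, had 42.69, 42.72 and 33.70 in the 24 h libraries and 35.38, 28.71 and 35.66 in the later set.

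Markers of other cell types were low except for CD68, and their part in the results was not tested. Of 10 markers, 9 were found, and CD3E, VWF, COL3A1, MYH11 and ADIPOQ did not exceed an FPKM of 0.33. CD68, a lysosomal gene also expressed outside macrophages, was at 69.59 to 126.20, and its change at 200 nM 24 h was -0.74. ACTA2 had FPKM 1.61, 3.20 and 3.8 at 24 h and PECAM1 0.38, 0.64 and 1.25, in order of dose as for VDR and RARA. In the later set ACTA2 had 2.53, 2.44 and 3.43 and PECAM1 1.52, 1.07 and 2.33, with 100 nM below DMSO for both. For PECAM1, DMSO 48 h exceeded every 24 h library. PTPRC was at 0.76 to 1.01, and no marker was called in any of the 4 comparisons. Only 2 to 4 markers were tested in each, so the lack of calls says little.

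**Figure D5:**
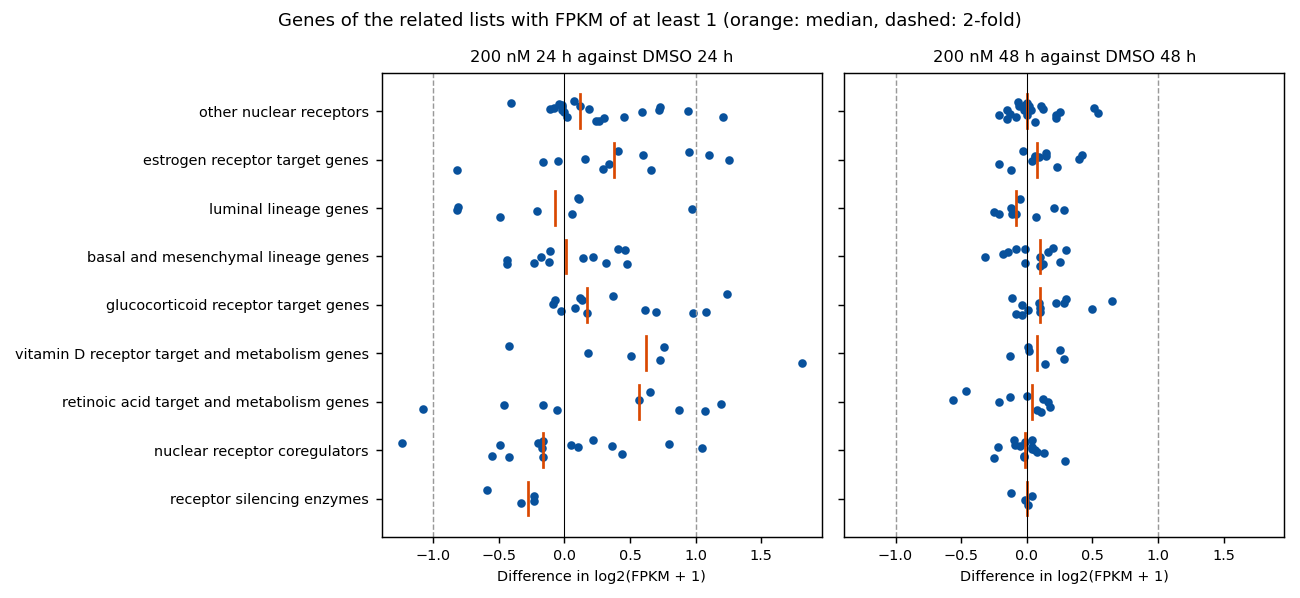
Difference in log2(FPKM + 1) (horizontal axes) at 200 nM against DMSO at 24 h (left) and 48 h (right) for the tested genes of each related list. Points are genes, orange lines are list medians and dashed lines mark 2-fold. The spread is wider at 24 h, where CDKN1A at 1.81 is the farthest point, and no gene of these lists passed 2-fold at 48 h.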

How the data were processed

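The authors deposited FPKM per gene for each of the 6 libraries, rounded to 2 decimals. The submitters' processing notes name Bowtie2, RSEM and hg19, without versions, and the study states that the libraries were made by a sequencing company. The RefSeq table of GRCh38.p14 supplied symbols for 16585 of 16623 NCBI Gene IDs. Gene coordinates are those of the files and promoter coordinates those of GRCh38.p14. The members and lists were chosen with earlier results of these data known. Differences in log2(FPKM + 1) were taken without a test. All members were named; of each related list up to 4 genes were named, those called in most treated comparisons or, where fewer than 2 were called, the 2 with the highest mean. The 3 most similar genes were named for the member with the widest range and for members at an FPKM of at least 1 in every library. Genes named outside this rule are listed in the text and were chosen for printing after their values were seen, though the markers among them had been listed beforehand. Alternatives were pseudocounts of 0.1 and 0.01, other filters, TPM, median-of-ratios factors, a 1.5-fold threshold and the other DMSO library. Depth was inferred and is approximate; promoter windows of 250 bases were printed only where GENCODE release 29 has no exon. The scripts were tested on simulated data. Software was pandas 2.3.3 and numpy 2.4.6 under Python 3.11.15, with figures from matplotlib 3.10.9.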

Additional observations from a re-analysis of the deposited data

Results flagged for a closer look

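VDR and RARB moved in opposite directions at the lower dose at the 2 times, in single libraries. For VDR, the change at 100 nM was 0.76 at 24 h and -0.32 at 48 h, a difference of 1.08. For RARB it was 0.75 at 24 h and -0.28 at 48 h, a difference of 1.03. With 1 library per condition the differences were not tested. Each rests on both DMSO libraries: against DMSO 48 h, the changes at 100 nM 24 h were 0.40 for VDR and -0.26 for RARB, so with that reference the opposite directions remained for VDR and were lost for RARB. With DMSO 24 h as the reference for both times, the changes at 100 nM 48 h were 0.05 for VDR and 0.72 for RARB, and the opposite directions were lost for both.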

How the results depend on the processing

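No paired analysis was possible because there was only 1 library for each combination of dose and time. No member was called lower under any setting, and no change called under the main setting turned its direction. RARB at 24 h, called higher only under other settings, was -0.26 (100 nM) and -0.14 (200 nM) against DMSO 48 h. At 100 nM 24 h, the members called higher went from 0 to 2 (VDR and RARB) with a pseudocount of 0.1 or 0.01, after rescaling to TPM and with a 1.5-fold threshold. At 200 nM 24 h they went from 2 to 3 under the same settings, with RARB added (log2 changes of 1.44, 1.54 and 1.17 with pseudocounts of 0.1 and 0.01 and TPM), to 1 with an FPKM of at least 1 required in both libraries (RARA, since VDR was at 0.89 in DMSO 24 h) and to 1 against DMSO 48 h (VDR). At 200 nM 48 h they went from 0 to 1 (VDR) with a 1.5-fold threshold and to 2 (VDR and RARB) against DMSO 24 h. Between the DMSO libraries the count went from 1 to 0 with the filter on both libraries and with median-of-ratios factors, and to 2 (RARA and RARB) at 1.5-fold. Of 45 log2 changes of members, 25 moved by at least 0.1 with a pseudocount of 0.1, 28 with 0.01, 10 with TPM and 0 with median-of-ratios factors. With DMSO 24 h as the reference for the 48 h libraries, 6 changes moved and 12 did not. With DMSO 48 h as the reference for the 24 h libraries, 6 also moved and 12 did not. Where a value or filter does not show it, the cause was not tested. Depth limits ESR1 and PGR to a few fragments.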
